A study of Homo sapiens with 2 samples.

Results

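The genes described here are the cytosolic and endoplasmic reticulum enzymes of phase II drug and hormone metabolism in PLC8024 cells, a human hepatocellular carcinoma (HCC) line also known as PLC/PRF/5. They are the protein-coding rows of the deposited gene table whose symbols begin with UGT, SULT or GST followed by a subfamily. This rule on name and biotype was chosen with earlier results of these data known. It found 52 of the 58735 listed genes. The 52 members were 22 UDP-glucuronosyltransferases and their relatives (UGT), 13 cytosolic sulfotransferases (SULT) and 17 glutathione S-transferases (GST). Gene expression was measured by RNA sequencing in 1 library of wild type (WT) cells, labelled non-treated, and 1 library of MAEL knockout (KO) cells. The KO cells were made with Cas9 and a guide against MAEL, and, per the study's methods, sorted cells were plated to obtain single clones, while no cloning step is given for the WT cells. The labels state that the knockout was checked by western blot and a mismatch cleavage assay (T7E1). Both lines grew in high-glucose DMEM with fetal bovine serum. With 1 library per condition no difference has a replicate check and no p-value is given.

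Phase II enzymes attach a large polar group to a drug, hormone, bile acid or breakdown product so that it can leave the cell in bile or urine. The UGTs transfer glucuronic acid from UDP-glucuronate inside the endoplasmic reticulum, the SULTs transfer sulfonate from the donor PAPS in the cytosol, and the GSTs join glutathione to reactive electrophiles. Hepatocytes are a main site of these reactions, and many of the genes lie in clusters of close copies that arose by duplication.

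The RNA libraries held 19904136 (WT) and 20833332 (KO) counts, in which mitochondrial genes took 4.42% and 4.96%. MAEL itself had 1 count in WT and 0 in KO, too few to check the labels by the targeted gene. Counts were scaled by edgeR's TMM factors, and the log2 fold change is that of KO over WT after adding 1 to each scaled count. It was computed for genes that reached 10 counts in either library, and a value past 2 in either direction is called past the threshold. This is the fold change limit in the study's methods, which also set a limit on the adjusted p value. No p-value was used here. The 95% interval is the exact Clopper-Pearson interval of the KO share of a gene's counts, written on the log2 scale, and it covers counting error only. Intervals of a log2 value stand in parentheses after it. Bulk RNA cannot tell fewer cells of a type from less RNA per cell. All 10 hepatocyte markers on a list, among them ALB, APOA1 and HNF4A, were detected in both libraries. Their summed count was 258798 in WT and 534785 in KO. By log2 fold change 10 of 10 were higher in KO, beside 48.0% of all genes compared. Higher past the threshold were 4 of the 10 (ALB, APOA1, TTR and AHSG), beside 1.54% of all genes with at least 100 counts in a library. The median log2 fold change of the 10 was 1.84, and the lowest was 0.36 (TF). ALB had 59 counts in WT and 8550 in KO, a log2 fold change of 7.36 (7.02 to 7.78). APOA1 had 419 and 4400 counts. All 4 markers of bile duct or progenitor cells (KRT7, KRT19, SOX9 and EPCAM) were lower in KO, with a summed count of 249 in WT and 75 in KO and EPCAM at 0 in KO. Of these, KRT7, KRT19 and EPCAM were past the threshold, and they had reached 10 counts in WT alone. Among genes with 10 to 99 counts in the larger library, 12.4% were lower past the threshold. The 5 fibroblast markers summed to 153 and 148 raw counts (142.6 and 159.6 scaled). DCN and LUM each had 3 counts in WT and 0 in KO, and COL1A2 had 1 in both. COL1A1 was at -2.75 and COL3A1 at 1.52 by log2 fold change. The 3 endothelial markers had 353 and 407 counts, of which PECAM1 took 348 and 392. VWF had 1 count in WT and 0 in KO. CDH5 had 4 and 15, a log2 fold change of 1.86, and reached 10 counts in KO alone. The 4 leukocyte markers had 1256 and 742, of which LYZ took 1251 and 737. CD3E was at 0 in both, PTPRC had 3 and 0 counts, and CD68 had 2 and 5. The 3 intestinal markers had 2137 and 2078, a log2 ratio of the scaled sums of 0.17. CDH17 was at -2.44, VIL1 at 0.70 and CDX2 at 0.79. The part of these markers in the results on phase II enzymes was not tested.

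The promoters below are the 250 bases before the RefSeq transcript start (GRCh38.p14) of members that turn up in the results: UGT2A3, the UGT with the most counts in KO, the close copies UGT2B10 and UGT2B11, the sulfotransferase with 0 counts in WT and 16 in KO, the only GST past the threshold and the most abundant member of all. Capitals mark matches to any of 3 short motifs searched on both strands, which overlapped one another in none of the printed windows. The antioxidant response element core, bound by NRF2, was searched as TGACNNNGC. The core bound by the AHR and ARNT pair was searched as GCGTG, and the TATA box as the letters TATAAA.
UGT2A3 (chr4:68951805-68952054, minus strand): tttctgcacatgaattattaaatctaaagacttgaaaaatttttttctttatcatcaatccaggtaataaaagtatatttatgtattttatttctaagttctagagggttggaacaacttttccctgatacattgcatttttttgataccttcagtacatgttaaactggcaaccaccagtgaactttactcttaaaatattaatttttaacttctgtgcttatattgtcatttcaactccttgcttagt
UGT2B10 (chr4:68815744-68815993, plus strand): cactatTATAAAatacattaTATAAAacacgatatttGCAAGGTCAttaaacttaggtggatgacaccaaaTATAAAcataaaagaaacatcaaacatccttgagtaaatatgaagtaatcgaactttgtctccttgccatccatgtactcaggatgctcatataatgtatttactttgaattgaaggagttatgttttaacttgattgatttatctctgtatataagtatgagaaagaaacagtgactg
UGT2B11 (chr4:69214749-69214998, minus strand): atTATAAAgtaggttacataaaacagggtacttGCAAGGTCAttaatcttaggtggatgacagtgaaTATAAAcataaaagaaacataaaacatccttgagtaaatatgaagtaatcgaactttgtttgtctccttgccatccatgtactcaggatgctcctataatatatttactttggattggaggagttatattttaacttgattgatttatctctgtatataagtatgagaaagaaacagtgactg
SULT2A1 (chr19:47886316-47886565, minus strand): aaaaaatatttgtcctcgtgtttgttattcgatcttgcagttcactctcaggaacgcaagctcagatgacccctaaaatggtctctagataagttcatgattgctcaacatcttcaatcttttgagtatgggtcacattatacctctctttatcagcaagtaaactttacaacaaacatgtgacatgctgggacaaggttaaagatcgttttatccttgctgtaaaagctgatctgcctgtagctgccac
GSTA1 (chr6:52803817-52804066, minus strand): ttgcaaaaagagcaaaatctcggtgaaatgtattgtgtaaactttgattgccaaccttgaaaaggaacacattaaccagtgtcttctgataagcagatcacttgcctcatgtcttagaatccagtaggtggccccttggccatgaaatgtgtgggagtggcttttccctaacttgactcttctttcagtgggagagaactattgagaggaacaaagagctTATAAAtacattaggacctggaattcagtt
GSTP1 (chr11:67583562-67583811, plus strand): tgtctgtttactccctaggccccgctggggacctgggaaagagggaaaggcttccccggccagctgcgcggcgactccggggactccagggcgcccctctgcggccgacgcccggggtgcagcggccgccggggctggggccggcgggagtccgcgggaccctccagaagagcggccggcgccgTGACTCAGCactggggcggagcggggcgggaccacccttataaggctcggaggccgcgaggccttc

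No capitals appear in the UGT2A3 and SULT2A1 windows, which held none of the 3 letter strings. The UGT2B10 and UGT2B11 windows were identical at 229 of 254 aligned columns (90.2%), and both carried an antisense match to the antioxidant response element core, at -213 and -217 bases from the start. GSTA1 had a TATA box at -30, and GSTP1 had a single match, to the antioxidant response element core at -66. RefSeq gave 49 promoters for 44 of the 52 members, and the other 8 members are named in the results without one. Matches to the antioxidant response element core were in 4 of 22 UGT promoters, 1 of 10 SULT promoters and 5 of 17 GST promoters, beside 10.9% of 35116 promoters of the same length in the whole table. The AHR and ARNT core was in 7, 1 and 5, beside 32.2% of all, and the TATA box in 5, 4 and 3, beside 10.7%. A match describes letters only and is not a measured binding site.

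Of the 52 members, 15 had no count in either library, 12 had counts below 10 in both, and 25 could be compared. A count of 0 allows up to 3 counts, or 0.151 CPM (counts scaled to a common library total) in WT and 0.144 CPM in KO. The members compared are not all members, and one that passed the filter of 10 counts in a single library had to be lower in the other. GSTA1, SULT1A2, SULT2A1, UGT2B10 and UGT2B28 passed it through the KO library alone, and UGT2B11, UGT3A2 and UGT8 through the WT library alone, leaving 17 that passed in both. Past the threshold were 6 members higher in KO and 0 lower, in a background of 2.16% higher and 5.64% lower among all 17887 genes compared. UGT2A3 was the only one of the 6 that also had 10 counts in WT. The other 5 reached the filter through KO, as did 46.5% of the 387 genes of the whole table that were past the threshold in that direction. Among genes with 10 to 99 counts in the larger library, where these 5 lay, the background was 3.44% higher and 12.4% lower. Of the 15 members with at least 100 counts in a library, UGT2A3 alone was past the threshold, in a background of 1.54% higher and 2.35% lower. Beyond a log2 fold change of 1 lay 8 members higher and 3 lower in KO, beside 10.2% and 16.5% of all genes compared.

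**Figure D1:**
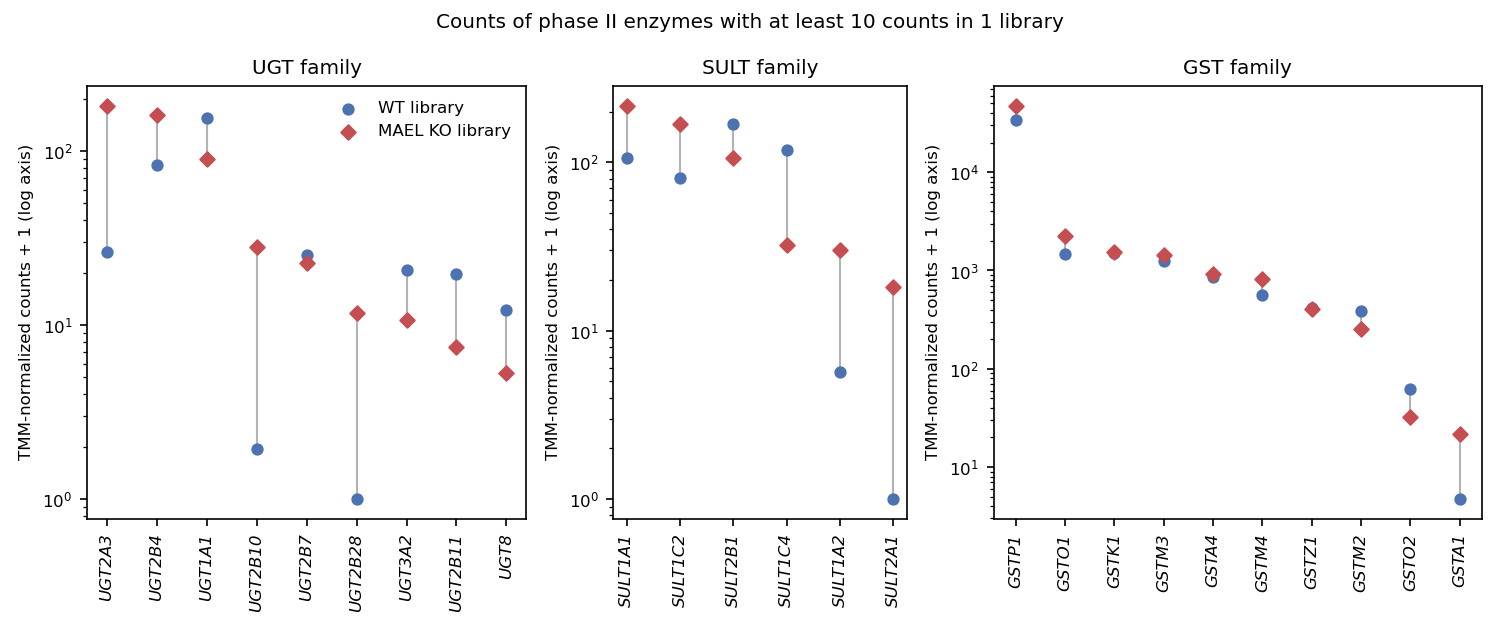
TMM-normalized counts plus 1 (log axis) of the 25 members with at least 10 counts in 1 library, in the WT library (circles) and the MAEL KO library (diamonds), 1 library each and hence with no error bars. Grey lines join the values of a gene. GSTP1 stands far above all other members in both libraries, and UGT2A3, UGT2B10, UGT2B28, SULT1A2, SULT2A1 and GSTA1 show the widest gaps with KO above WT.

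The UGT family was low as a whole and differed in composition between the libraries. Its 22 genes took 368 counts in WT (18.5 CPM) and 475 in KO (22.8 CPM), and the log2 ratio of the scaled sums was 0.58 (0.38 to 0.78). Of 9 members compared, 3 were higher past the threshold, 0 were lower past it, 4 lay above 0 and 5 below. With UGT2B28, which had 0 counts in WT, held at its bound of 3 counts, 2 were higher past the threshold. The median log2 fold change of the 9 was -0.16, beside -0.04 over all genes compared, and it was 0.96 over the 3 with at least 100 counts.

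The largest part of the UGT family by counts in WT was UGT1A1, the enzyme that conjugates bilirubin (chromosome 2 of GRCh38, 233760248 to 233773299, plus strand). UGT1A1 had 164 counts in WT and 83 in KO, a log2 fold change of -0.77 (-1.17 to -0.38). It was the only one of 9 UGT1A genes that could be compared. UGT1A3 had 3 and 0 counts, UGT1A6 had 2 and 0, and UGT1A5 had 0 and 1. UGT1A4, UGT1A7, UGT1A8, UGT1A9 and UGT1A10 had 0 in both libraries. The UGT1A genes are built from separate first exons joined to a common set of later exons, and 49.9% of the exon bases of UGT1A1 are also exons of other genes in GENCODE 29. UGT1A10, for which that share was 70.7%, had no count, so reads on the common exons were not credited to every gene that carries them.

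The UGT2 genes, a cluster on chromosome 4 that acts on steroids, bile acids and many drugs, had a higher summed count in KO. The sum over the 3 UGT2A and 7 UGT2B genes was 163 counts in WT and 378 in KO, a log2 ratio of the scaled sums of 1.42 (1.16 to 1.70). For the 7 UGT2B genes alone it was 135 and 210, a log2 ratio of 0.85 (0.53 to 1.17). UGT2A3 (68928463 to 68951791, minus strand), expressed in liver and intestine, had 27 counts in WT and 168 in KO. Its KO level was 7.20-fold that of WT in scaled counts, a log2 fold change of 2.80 (2.26 to 3.49). Only 5.17% of its 50-base runs occur in transcripts of another gene.

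UGT2B10 (68815993 to 68831196, plus strand), which conjugates amines such as nicotine, had 1 count in WT and 25 in KO. The ratio of the scaled counts was 28.9, and its 95% interval on the log2 scale was wide, at 2.24 to 10.2. UGT2B28 (69280499 to 69295050, plus strand), which conjugates androgens, had 0 counts in WT and 10 in KO, at least 3.86-fold higher against a floor of 3 WT counts. Both genes reached the filter through KO alone, which set their direction.

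UGT2B4 (69480165 to 69526014, minus strand), which conjugates bile acids, had 88 counts in WT and 149 in KO, a log2 fold change of 0.96 (0.58 to 1.37). UGT2B7 (69051363 to 69112987, plus strand), which conjugates morphine and steroids, had 26 and 20 counts, and its interval of -1.09 to 0.73 held 0. UGT2B11 (69199951 to 69214731, minus strand) had 20 counts in WT and 6 in KO, a log2 fold change of -1.39 (-3.13 to -0.16). UGT2B11 reached 10 counts in WT alone, so its direction was set by the filter.

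The values of UGT2B10, UGT2B11 and UGT2B28 carry a limit, because 30.9% of the 50-base runs of UGT2B10, 36.4% of those of UGT2B11 and 34.8% of those of UGT2B28 occur in transcripts of other genes. How reads that fit several places were counted is not given in the sources used here. UGT2B15 and UGT2B17, close copies of each other that conjugate androgens, had 0 counts in both libraries, as did UGT2A2. UGT2A1 had 1 count in WT and 0 in KO.

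The remaining UGTs do not belong to the drug-conjugating core. UGT3A2, which uses other sugars than glucuronic acid, had 21 and 9 counts (95% interval of the log2 ratio -2.32 to 0.18). UGT8, which makes the galactolipids of myelin, had 12 and 4 counts (-3.46 to 0.35). Both intervals held 0, so a difference was not detectable at this depth. UGT3A1 had 3 and 0 counts.

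Shares within a family do not depend on the scaling between libraries, but they restate the same counts. A higher count of 1 member also lowers the shares of the others, so the shares are no separate support. UGT1A1 made up 44.6% of UGT counts in WT (95% Clopper-Pearson interval 39.4% to 49.8%) and 17.5% in KO (14.2% to 21.2%). UGT2A3 made up 7.34% in WT (4.89% to 10.5%) and 35.4% in KO (31.1% to 39.9%). The intervals of the 2 libraries did not overlap for either gene. By log2 ratio, the counting interval lay wholly above 0 for 34.8% of all genes compared and wholly below for 34.7%. UGT2B4 had 23.9% in WT and 31.4% in KO, with intervals that overlapped. Per length, in deposited FPKM, the order in WT was UGT1A1 (1.68), UGT2B4 (1.61) and UGT2B7 (0.526), and in KO it was UGT2B4 (3.14), UGT2A3 (2.89) and UGT1A1 (0.980). For UGT1A1 this level is divided by a length of which 49.9% is shared with other genes.

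**Figure D2:**
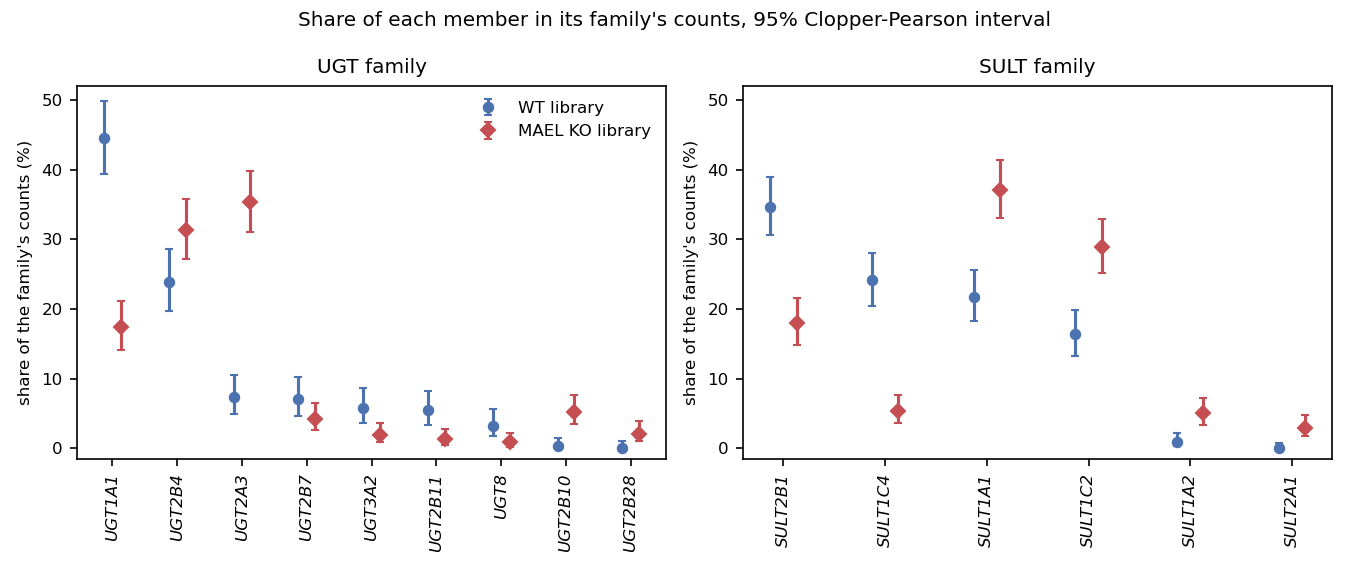
Share of each compared UGT gene (left) and SULT gene (right) in the counts of its own family, in percent, in the WT library (circles) and the MAEL KO library (diamonds). Bars are 95% Clopper-Pearson intervals and cover counting error only. UGT1A1, SULT2B1 and SULT1C4 lead or rank high in WT, and UGT2A3, SULT1A1 and SULT1C2 hold larger shares in KO.

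The SULT family was about as low as the UGTs, with 519 counts in WT (26.1 CPM) and 539 in KO (25.9 CPM). The log2 ratio of the scaled sums was 0.26 (0.09 to 0.44). Of 6 members compared, 2 were higher past the threshold and 0 lower, 4 lay above 0 and 2 below, and the median log2 fold change was 1.05, beside -0.04 over all genes compared. SULT1A2 and SULT2A1 had passed the filter through KO alone, and the 4 members that reached 100 counts had a median of 0.18. None of the 6 intervals held 0, beside 30.5% of all genes compared whose interval did. The filter had set the direction of SULT1A2 and SULT2A1, so their intervals are no support for a family difference.

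Among the SULTs, SULT2A1, the hepatic enzyme for dehydroepiandrosterone and bile acids (chromosome 19, 47870466 to 47886397, minus strand), had 0 counts in WT and 16 in KO, at least 6.17-fold higher against a floor of 3 WT counts. Its 50-base runs are almost unique, with 0.310% found in other genes. SULT1A2 (chromosome 16, 28591943 to 28597109, minus strand) had 5 counts in WT and 27 in KO, a log2 fold change of 2.41 (1.25 to 4.38). SULT1A1 (chromosome 16, 28605196 to 28623625, minus strand), the main liver enzyme for small phenols, had 113 and 200 counts, a log2 fold change of 1.03 (0.69 to 1.38).

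These phenol sulfotransferases lie side by side. Of their 50-base runs, 22.1% for SULT1A2 and 14.9% for SULT1A1 occur in other genes, most often in each other. Reads exchanged between them would leave their sum in place. The sum over the 4 SULT1A genes was 126 counts in WT and 235 in KO, a log2 ratio of 1.11 (0.79 to 1.43). SULT1A3, which acts on dopamine, had 8 counts in each library, and its copy SULT1A4 had 0 in both, with 97.3% of its 50-base runs shared.

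SULT1C2 (chromosome 2, 108288639 to 108309915, plus strand) had 85 counts in WT and 156 in KO, a log2 fold change of 1.08 (0.70 to 1.49). SULT1C4 (chromosome 2, 108377911 to 108388057, plus strand), known from fetal tissues, had 125 counts in WT and 29 in KO, a log2 fold change of -1.86 (-2.53 to -1.31). It had the lowest value of all 25 members, just inside the threshold, and when scaled by library totals it was at -2.13 and past it. These neighbours in a cluster lay on opposite sides of 0, with intervals that did not overlap. SULT2B1 (chromosome 19, 48552075 to 48599425, plus strand), which acts on cholesterol and related sterols, had 180 counts in WT and 97 in KO, a log2 fold change of -0.68 (-1.05 to -0.32).

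By share of SULT counts, SULT2B1 led in WT with 34.7% (95% Clopper-Pearson interval 30.6% to 39.0%) and had 18% in KO (14.8% to 21.5%). SULT1C4 had 24.1% in WT (20.5% to 28.0%) and 5.38% in KO (3.63% to 7.64%), while SULT1A1 led in KO with 37.1% (33.0% to 41.3%) against 21.8% in WT (18.3% to 25.6%). None of these pairs of intervals overlapped, nor did those of SULT1A2, SULT1C2 and SULT2A1. The filter had set the direction of SULT1A2 and SULT2A1, so the separation of their shares is no support. Separation of shares was not computed over all genes, and the background at hand is another measure. By log2 ratio, 34.8% of all genes compared had a counting interval wholly above 0 and 34.7% wholly below. SULT1E1, the estrogen sulfotransferase, had 2 and 4 counts, and SULT1B1, which acts on thyroid hormones, had 0 and 2. SULT6B1 had 1 and 0. SULT1C3 and SULT4A1 had 0 in both libraries. In deposited FPKM, SULT2B1 had the highest level per length of the family in both libraries, at 2.92 in WT and 1.81 in KO.

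**Figure D3:**
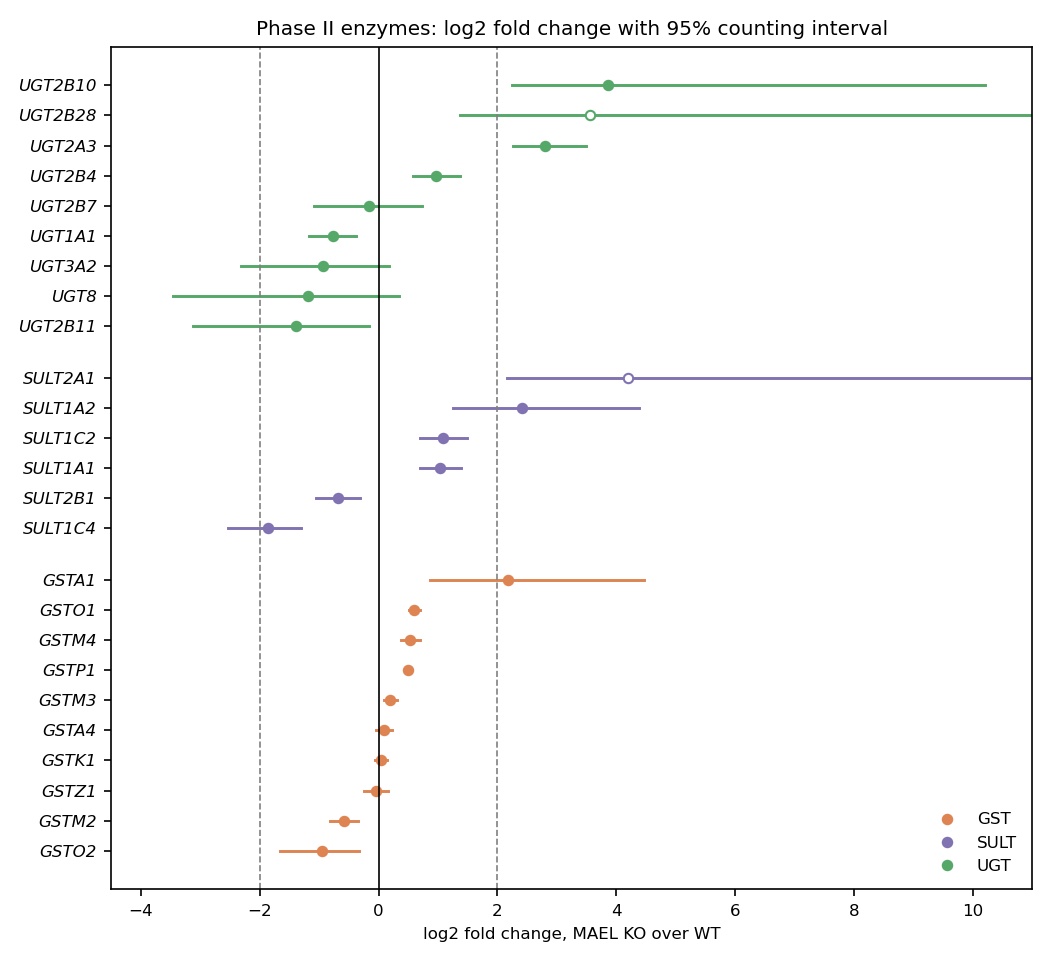
Log2 fold change of MAEL KO over WT (points) with the 95% counting interval (lines) for the 25 compared members, grouped by family. Open points mark genes with 0 counts in WT, whose intervals run off the right edge, and dashed lines mark the threshold of 2 in each direction. SULT1C4 lies nearest to the lower threshold, and the GST values cluster around 0.

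The GST family was far more abundant than the UGTs and SULTs, and most of its members lay near 0. Its 17 genes took 43068 counts in WT (2164 CPM) and 51138 in KO (2455 CPM), and the log2 ratio of the scaled sums was 0.46 (0.44 to 0.48). Of 10 members compared, 1 was higher past the threshold and 0 lower, and the other 9 lay within 1 of 0 on the log2 scale. The median log2 fold change was 0.14, beside -0.04 over all genes compared. Differences of this size are on the order of the shift between scalings. When scaled by library totals alone, the median over all genes compared was -0.31 and that of the GSTs was -0.13, and GSTA4, GSTK1 and GSTM3 changed sign. All genes past the threshold were then 269 higher and 1309 lower, against 387 and 1008 with TMM.

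GSTP1 (chromosome 11, 67583595 to 67586656, plus strand), the pi-class enzyme that normal hepatocytes hardly express and many tumours do, had 36073 counts in WT and 44033 in KO. Its deposited level was 863 FPKM in WT and 1215 in KO, at ranks 25 and 29 among all listed genes. The log2 fold change was 0.50 (0.48 to 0.52), and 0.22 with total counts. GSTP1 supplied 83.8% of GST counts in WT (95% Clopper-Pearson interval 83.4% to 84.1%) and 86.1% in KO (85.8% to 86.4%). Without it, the other 16 genes summed to 6995 and 7105 counts, a log2 ratio of 0.23 (0.18 to 0.28).

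GSTA1 (chromosome 6, 52791664 to 52803910, minus strand), the alpha-class enzyme that dominates in normal hepatocytes, had 4 counts in WT and 19 in KO. Its log2 fold change was 2.18 (0.87 to 4.47), just past the threshold, and 1.94 with total counts. Its close copy GSTA2 had 6 and 5 counts, and 26.2% of the 50-base runs of GSTA1 occur in other genes, most often GSTA2. GSTA3 had 6 counts in WT and 0 in KO, and GSTA5 had 0 in both. GSTA4, which clears the lipid peroxidation product 4-hydroxynonenal, was the abundant member of the class, with 930 and 856 counts (95% interval of the log2 ratio -0.04 to 0.23).

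GSTO1 (chromosome 10, 104235356 to 104267459, plus strand), an omega-class enzyme that reduces dehydroascorbate, was the second GST per length, at 42.7 FPKM in WT and 64.6 in KO. It had 1579 and 2071 counts, a log2 fold change of 0.60 (0.51 to 0.70), and 0.33 with total counts. Its neighbour GSTO2 had 66 and 29 counts, a log2 fold change of -0.95 (-1.66 to -0.33). The omega genes thus lay on opposite sides of 0 under both scalings, with GSTO2 at -1.22 by total counts.

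In the mu class on chromosome 1, GSTM4 had 607 counts in WT and 759 in KO, a log2 fold change of 0.53 (0.38 to 0.69), and GSTM2 had 410 and 236, a log2 fold change of -0.58 (-0.82 to -0.35). Their exons overlap in part, and 15.5% of the 50-base runs of GSTM4 and 16.0% of those of GSTM2 occur in other genes. GSTM3 had 1336 and 1325 counts, a log2 fold change of 0.20, and -0.08 with total counts. GSTM1 and GSTM5 had 0 counts in both libraries. GSTK1, found in mitochondria and peroxisomes, had 1603 and 1428 counts (-0.06 to 0.15), and GSTZ1, which acts in tyrosine breakdown, had 445 and 375 (-0.24 to 0.16). GSTT2B had 3 and 2 counts and GSTT4 had 0 in both.

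**Figure D4:**
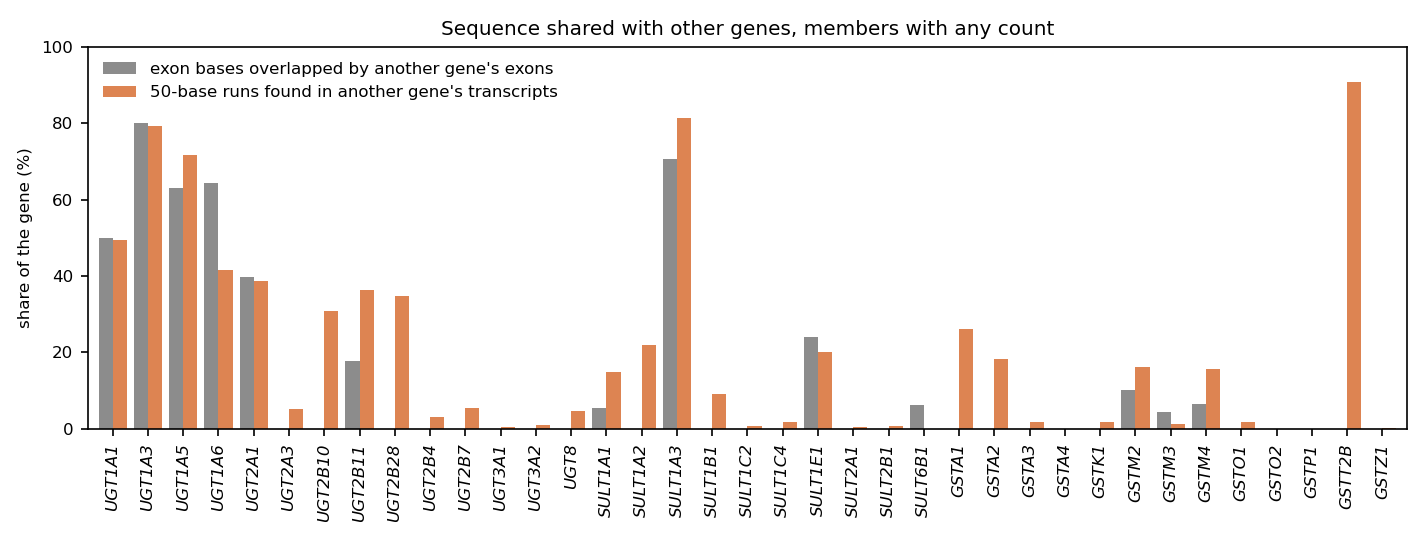
Share of each gene, in percent, that is common to other genes, for the 37 members with any count. Grey bars give exon bases that lie in another gene's exons, and orange bars give 50-base runs that occur in another gene's transcripts (GENCODE 29). UGT1A genes, SULT1A3 and GSTT2B share most, while UGT2A3, UGT2B4, SULT2A1, SULT1C4 and GSTP1 share little or nothing.

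The enzymes need cofactors, and 84 genes on 7 lists of cofactor supply, related conjugation reactions, export and regulation were read beside them. Of the 84, 68 could be compared, with 3 higher and 2 lower past the threshold and a median log2 fold change of 0.06. The background over all genes compared was 2.16% higher and 5.64% lower, with a median of -0.04. Of the 68, 61 had at least 100 counts in a library, where the background was 1.54% higher and 2.35% lower. These shares are also the background for the single lists below. UGDH, which makes UDP-glucuronate, had 6894 counts in WT and 2799 in KO, a log2 fold change of -1.09 (-1.15 to -1.03). The other 6 genes of that list lay between -0.16 (SLC35D2, a nucleotide sugar carrier) and 0.69 (PGM1, a phosphoglucomutase), among them UGP2, which makes UDP-glucose, at 0.51, and SLC35D1, which carries UDP-glucuronate into the endoplasmic reticulum, at 0.63. The donor synthase was thus lower in KO while the summed UGT2 counts, of which UGT2A3 took 27 in WT and 168 in KO, were higher.

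For sulfonation, 11 of 12 genes were compared, with 0 higher and 1 lower past the threshold and a median of -0.25. The PAPS synthases PAPSS1 (863 and 566 counts) and PAPSS2 (825 and 524) were at -0.40 and -0.44. SLC13A4, a sulfate carrier, had 42 and 7 counts, a log2 fold change of -2.23 (-3.77 to -1.21), and SLC26A1, a sulfate exchanger, had 810 and 1463, at 1.06.

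Glutathione synthesis and turnover held 17 compared genes of 19, with 1 higher and 1 lower past the threshold and a median of -0.10. CHAC1, which degrades glutathione, had 2016 counts in WT and 131 in KO, a log2 fold change of -3.72 (-4.0 to -3.48). ANPEP, a surface peptidase that can act on the breakdown products of glutathione conjugates, had 2694 and 10425 counts, at 2.16 (2.10 to 2.22). The cystine carrier SLC7A11 was at -1.23 and the cysteine-making CTH at -0.99, while GGCT, which acts on gamma-glutamyl peptides, was at 1.06 and NAT8, which acetylates cysteine conjugates, at 0.87. GCLC, the catalytic subunit of the rate-limiting enzyme, had 6037 and 5168 counts (-0.07 to 0.04), and its modifier GCLM had 5713 and 3391, at -0.54.

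Membrane-bound relatives of the GSTs numbered 5 compared of 6, with 0 past the threshold and a median of 0.05. MGST1 was the most abundant, with 4102 and 3678 counts (-0.01 to 0.12). MGST2 (371 and 706 counts) was at 1.14, MGST3 (920 and 1556) at 0.97 and PTGES, a prostaglandin E synthase, at -1.66 (108 and 29 counts).

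Acetyl, methyl and amino acid conjugation held 8 compared genes of 18, with 1 higher and 0 lower past the threshold and a median of 0.71. BAAT and NAT2 had passed the filter through KO alone, which bears on this median. BAAT, which joins bile acids to glycine or taurine, had 5 counts in WT and 92 in KO, a log2 fold change of 4.15 (3.14 to 6.07). NAT2, the acetyltransferase of isoniazid, had 8 and 22 counts, at 1.55 (0.45 to 3.05), AS3MT, an arsenic methyltransferase, was at 1.02, and SLC27A5, which activates bile acids, was at -0.04.

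All 5 export genes were compared, with 0 past the threshold and a median of -0.38. ABCC3, a basolateral pump for glucuronides, had 802 and 213 counts, a log2 fold change of -1.70 (-1.93 to -1.48). ABCC2, the canalicular pump for bilirubin glucuronide and glutathione conjugates, had 11802 and 6773 counts, at -0.59, and ABCC4 was at -0.38. ABCG2, an exporter of sulfate conjugates, was at 0.32.

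Regulators held 15 compared genes of 17, with 1 higher and 0 lower past the threshold and a median of 0.22. NR1H4, the bile acid receptor FXR, had 9 counts in WT and 270 in KO, a log2 fold change of 4.96 (4.17 to 6.26). It had passed the filter through KO alone. HNF4A, a hepatic lineage factor, was at 1.15 (2816 and 5391 counts), and MAFG, a small partner of NRF2, at -1.42 (2899 and 938 counts). NFE2L2, which encodes NRF2, had 2321 and 3706 counts (0.89). The drug sensors differed in abundance, with NR1I2 (PXR) at 2 and 3 counts, NR1I3 (CAR) at 84 and 88, and AHR at 2448 and 1611, a log2 fold change of -0.39.

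**Figure D5:**
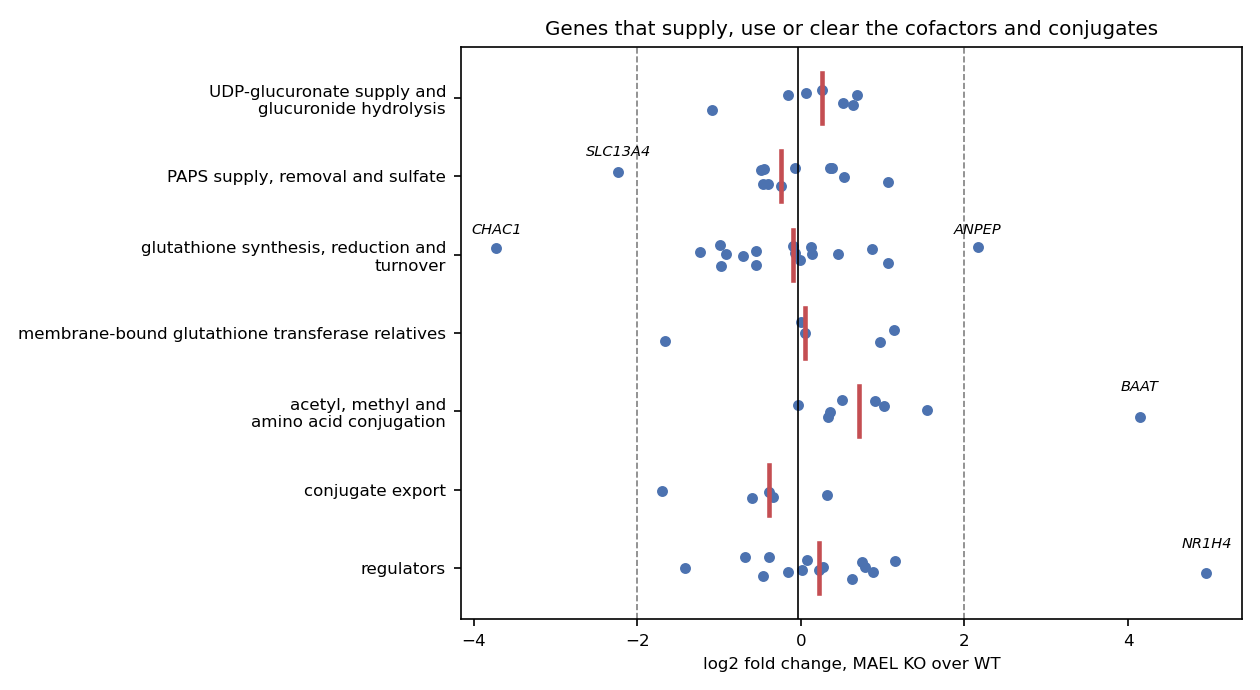
Log2 fold change of MAEL KO over WT for the 68 compared genes of the 7 lists (points, spread vertically for legibility), with each list's median (red bars). The black line is the median of all genes compared, -0.04, and dashed lines mark the threshold of 2 in each direction; NR1H4, BAAT and ANPEP lie above it, and CHAC1 and SLC13A4 below the lower one.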

How the data were processed

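The authors sequenced RNA of PLC8024 cells, WT and MAEL KO, 1 HiSeq library each. The authors deposited read counts per gene, whole numbers without normalization, and FPKM values, which equal the counts divided by listed gene length and a rescaled library size (1.10 and 0.910 times the WT and KO totals). The submitters' processing notes name HISAT2 2.0.5, featureCounts 1.5.0-p3 and hg19, but gene starts and ends match GENCODE 29 on GRCh38 for 52 of 52 members. Read length and the treatment of reads that fit several genes are not given in the sources used here.

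Counts were scaled in R 4.3.3 by edgeR 4.0.16 TMM factors. Size factors of DESeq2 1.42.0 served as an alternative. Fold changes and intervals were computed in Python 3.11.15 with SciPy 1.17.1, and the steps were tested on simulated data. The total counts, 19904136 and 20833332, set the floor of 3 counts (0.151 and 0.144 CPM). Molecules were not tagged, so reads may repeat a molecule, and the intervals and floors hold counting error alone. No test across samples was possible with 1 library per condition.

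Members follow the name rule. All members were named, and of each list up to 3 genes at each end of log2 fold change, plus genes named for their roles after their values were seen. Some listed genes and a motif are not reported here. The members and lists were chosen with earlier results of these data known, and the promoters printed were chosen after values were seen. Promoter sequences are from RefSeq (GRCh38.p14). Exon overlap and runs of 50 bases shared with other genes were computed from GENCODE 29. Alternatives were other scalings, FPKM, other added counts, count filters and thresholds.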

Additional observations from a re-analysis of the deposited data

How the results depend on the processing

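No paired analysis was possible because each condition has 1 library, and for the same reason no library could be left out. Of 125 log2 fold changes of single members under 5 alternatives (DESeq2 size factors, total counts, the FPKM ratio, and 0.1 or 5 added), 116 lay inside the counting interval of the gene. The 9 outside it were SULT2A1 with 5 added and, with total counts, every GST with at least 100 counts. These GSTs were GSTA4, GSTK1, GSTM2, GSTM3, GSTM4, GSTO1, GSTP1 and GSTZ1. Members with few counts have wide intervals, so a value inside them says little about stability. Scaling by total counts turned the sign of 3, GSTA4 (-0.19), GSTK1 (-0.23) and GSTM3 (-0.08). The 5 that crossed the threshold were GSTA1 (1.94 with total counts, 1.55 with 5 added), SULT1A2 (1.82 with 5 added), UGT2B28 (1.66 with 5 added) and SULT1C4 (-2.13 with total counts). Medians of the UGT, SULT and GST families moved with total counts to -0.43, 0.78 and -0.13, the last with a change of sign, while that of all genes moved to -0.31. The filter moved them further: at 100 counts the UGT median was 0.96, against -0.16, and the SULT median 0.18, against 1.05, and without a filter the UGT median was -0.85. Without members of shared sequence the SULT median was 0.20.

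UGT members higher past the threshold numbered 3, and 2 with 5 added or with 0-count genes at their bound (chosen after seeing the data), and 1 for genes with at least 100 counts. At a log2 threshold of 1, 2 UGT members were lower. The number of SULT members higher was 2, and it was 1 with 5 added, 0 at 100 counts and 4 at a threshold of 1, while the number lower was 1 with total counts and 1 at a threshold of 1, against 0. GST members higher numbered 1, and 0 with total counts, with 5 added or at 100 counts, and 1 GST member, GSTA3, was lower without a count filter. Without members that share at least 10% of their 50-base runs with other genes, an alternative chosen after seeing the data, the numbers higher were 1 for UGT, 1 for SULT and 0 for GST. Over all genes, the 387 higher and 1008 lower became 250 and 513 with 5 added, 185 and 283 at 100 counts, 1029 and 1773 without a filter, and 1827 and 2951 at a threshold of 1. The filters and the added count remove or shrink low-count genes by construction, and the cause of the other changes was not tested. Depth limits every member under 30 counts.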

Other observations

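The rule took protein-coding rows only. A further 28 rows of the table have names of the same families and another biotype, most of them pseudogenes, and 8 of these had any count. The highest count among them was 5, for GSTA6P in KO, against 2 in WT.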
